A study of Equus caballus with 20 samples.

Results

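The genes described here are 8 receptors for activins and bone morphogenetic proteins (BMPs), ACVR1C, ACVR1, ACVR1B, BMPR1A, BMPR1B, ACVR2A, ACVR2B and BMPR2, together with INHBA and INHBB, which encode the subunits of the activins. They were chosen by name, with earlier results of these data known, and all 10 were found by symbol among the 26740 features of the expression table. ACVR1C leads the set because it was already known to be lower in pregnant mares in these libraries, so its levels are given as a description with no test. Whether a threshold lay behind the choice of ACVR1C is not recorded. The other 9 genes were taken as relatives of ACVR1C and possible ligand subunits.

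RNA was sequenced from epithelial cells taken at the ampullary-isthmic junction of the oviduct of Warmblood mares, 4 days after ovulation. The 20 libraries fall into 4 groups of 5, each described as a biological replicate. PI libraries are from pregnant mares and the oviduct next to the ovulating ovary (ipsilateral), and CI libraries are from that same side in cyclic mares. PC libraries are from the opposite (contralateral) oviduct of pregnant mares, and CC libraries are from the opposite oviduct of cyclic mares. No other treatment is named in the labels. A library is written as its group and replicate number, so that PI3 is replicate 3 of the pregnant ipsilateral group. The sample titles do not say which libraries come from one mare.

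Activins and BMPs are secreted dimers that assemble a complex of type I and type II receptors on the cell surface. The type II receptor is active by itself and phosphorylates the type I receptor, which then phosphorylates SMAD proteins that enter the nucleus with SMAD4. Type I receptors of the activin branch act mainly through SMAD2 and SMAD3, and those of the BMP branch mainly through SMAD1, SMAD5 and SMAD9. ACVR1C, also called ALK7, is a type I receptor of the activin branch that responds to activin B, activin AB, NODAL and GDF3.

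Levels are the authors' TMM-normalized counts, in which the reads of each library are rescaled to a common effective library size. Library totals ran between 2795168 reads in PI1 and 10126484 reads in CI2, and 3 reads, the limit that a count of 0 allows, correspond to 1.75 to 7.03 normalized counts; this limit covers counting error only. In PI1, PI4 and CI3 a single feature took 14.4%, 27.8% and 15.4% of the reads. Marker genes of multiciliated and secretory oviduct cells were present in every library, and markers of stroma, smooth muscle, endothelium and leukocytes were also measured, so the samples were not epithelium alone. Of the 10 ovarian and mesothelial markers found, FSHR, AMHR2, MSLN and CALB2 averaged below 3.03 normalized counts, while 6 passed the filter on low values, led by WT1 (1519 to 2969 per library) and UPK3B (37.8 to 387). The 10 summed to 1984 to 3065 in PI and 1803 to 2566 in CI, and to 1773 to 3163 in PC and 1668 to 2290 in CC; of the 6, 5 were higher in PI than in CI (median log2 difference 0.25, with 2 at an unadjusted limma p under 0.05) and 3 were higher in PC than in CC (median 0.03). These are bulk samples, in which fewer cells of a type and less RNA per cell cannot be told apart. The normalized counts are not divided by transcript length, so levels are compared between libraries and not between genes.

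ACVR1C was lower in pregnant than in cyclic mares on both sides. On the ovulation side its normalized counts were 37.5, 36.0, 59.4, 23.5 and 14.2 in PI1 to PI5, against 63.7, 50.1, 63.0, 76.8 and 83.6 in CI1 to CI5. On the opposite side they were 25.8, 29.2, 50.0, 35.7 and 17.7 in PC1 to PC5, against 55.3, 86.6, 87.3, 103.5 and 63.2 in CC1 to CC5. Every PC library lay below every CC library, and 4 of the 5 PI libraries lay below every CI library, the exception being PI3, which was above CI2.

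The group means were 34.1 ± 17.1 in PI and 67.4 ± 13.1 in CI, and 31.7 ± 12.1 in PC and 79.2 ± 19.6 in CC (SD, n = 5 each). On the log2(normalized count + 3.03) scale, the limma difference was -1.03 ± 0.30 for PI minus CI and -1.28 ± 0.30 for PC minus CC (SE). Averaged over the sides it was -1.16 ± 0.21. This SE treats the oviducts of one mare as separate, so it is too small where those oviducts are alike. The added 3.03 understates the change of a gene as low as this one. The reads behind these values were 12 to 70 per library in PI and 35 to 96 in CI, and 16 to 61 in PC and 42 to 142 in CC, so counting error is a sizeable part of the spread in the lowest libraries. The order of the group means was CC, CI, PI, PC, and the neighbouring pairs CC with CI and PI with PC overlapped.

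**Figure D1:**
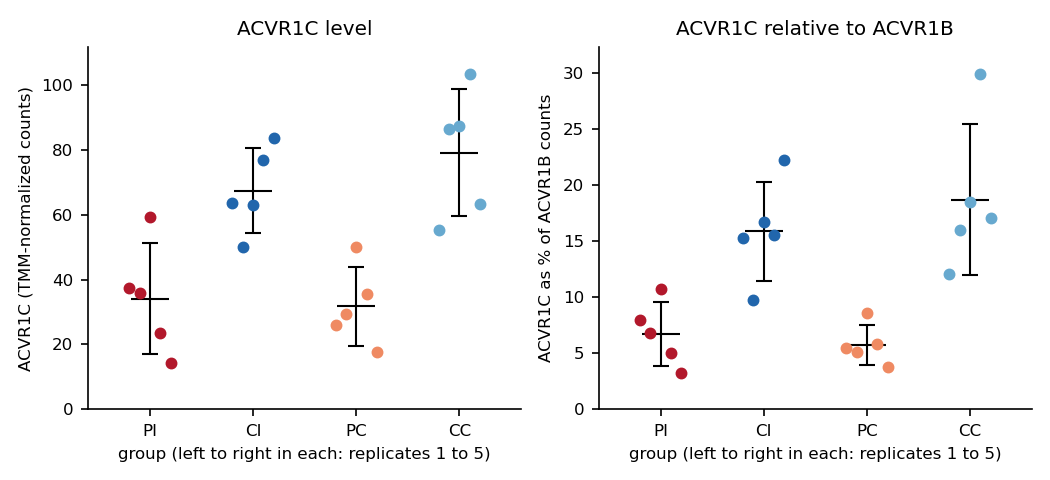
ACVR1C in each library (points), with the group mean and SD (bars), as TMM-normalized counts (left) and as a percentage of the ACVR1B counts of the same library (right), in the groups PI, CI, PC and CC. The PC points, between 17.7 and 50.0 normalized counts, all lie below the CC points, between 55.3 and 103.5.

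ACVR1C was more alike between same-numbered libraries in pregnant mares, whose numbers pair the oviducts by the likeness of their libraries over all features kept. In pregnant mares the lowest ACVR1C value on each side was in number 5 and the highest in number 3, and the median absolute log2 difference between same-numbered PI and PC libraries was 0.274, against 0.719 between differently numbered ones. In cyclic mares the same medians were 0.417 and 0.309, so same-numbered libraries were no closer. ACVR1C was higher ipsilaterally in 3 of 5 pregnant pairs of numbers and in 2 of 5 cyclic ones.

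Groups that do not overlap are uncommon in this table. Of 14692 features kept after a filter on low values, 0.272% were lower in all PC than in all CC libraries and 0.402% were lower in all PI than in all CI libraries. Because ACVR1C was chosen for this difference, nothing is read from its place among these features.

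Markers of some cell types moved with the same comparison. Those of secretory cells, smooth muscle, endothelium and macrophages had median log2 differences of -0.04, -0.08, 0.04 and -0.02 for PI minus CI. For PC minus CC these medians were 0.25, -0.08, 0.07 and 0.11. The 12 measured multiciliated-cell markers had summed levels of 64043 to 80712 (median 68356) in PI and 48530 to 69093 (median 56333) in CI, and of 63822 to 78974 (median 68815) in PC and 48544 to 75223 (median 53768) in CC. All 12 had a positive log2 difference on each side, with medians of 0.23 and 0.30, and none passed the test. An unadjusted limma p under 0.05 was reached by 1 and 2 of them, against 3.50% and 4.55% of all features. The 13 stromal markers summed to 2057 to 7970 (median 3061) in PI and 4078 to 6216 (median 4866) in CI, and to 2834 to 6327 (median 3625) in PC and 3087 to 9316 (median 3862) in CC. Of these, 12 of 13 on the ovulation side and 11 of 13 on the opposite side had a negative difference, with medians of -0.42 and -0.44. An unadjusted limma p under 0.05 was reached by 3 and 0 of them.

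The part of multiciliated and stromal cells in the ACVR1C result was not tested. Over all 20 libraries the Pearson r of ACVR1C was 0.56 with the stromal sum and -0.45 with the multiciliated sum (log2 values). As deviations from the group means, r was 0.50 and 0.13. With the ovarian and mesothelial (mostly WT1), smooth muscle, and T and NK sums, r was -0.49, 0.375 and -0.35. As deviations these were -0.32, 0.49 and 0.22. For the remaining sums r ran from -0.22 to 0.18, and from -0.02 to 0.36 as deviations. The part of any of these cell types was not tested. These are descriptions, because libraries of one mare are not independent. CC5 and CI5, the cyclic libraries with the highest multiciliated sums of their groups (75223 and 69093), had ACVR1C at 63.2 and 83.6 normalized counts, above every pregnant library. PI3 and PC3, the pregnant libraries with the highest stromal sums of their groups, had the highest ACVR1C values of those groups, 59.4 and 50.0. CC1, CC4 and CC5 had stromal sums of 3862, 3704 and 3087, within the range of PC, and ACVR1C at 55.3, 103.5 and 63.2, above all PC libraries. The libraries named here were picked out of the 20, so nothing is read from them about the part of cell content. The T and NK cell markers summed to 228 to 595 (median 565) in PI and 204 to 684 (median 250) in CI, and to 349 to 1112 (median 433) in PC and 203 to 413 (median 287) in CC. Of the 12 that passed the filter, 11 had a positive log2 difference on the ovulation side and 12 on the opposite side, with medians of 0.73 and 0.91, larger in size than those of the multiciliated and stromal markers. None was called. An unadjusted limma p under 0.05 was reached by 3 and 6 of them, against 3.50% and 4.55% of all features. The part of these cells in the ACVR1C result was not tested either.

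Genes that resembled ACVR1C over the 20 libraries were found by the Pearson correlation of log2 values, as a description of libraries that share mares and groups. The 5 closest were SEMA6A (r = 0.88), LNX1 (0.75), TENM3 (0.74), RHOJ (0.74) and PRDM1 (0.73). SEMA6A, a transmembrane semaphorin, averaged 204 ± 41.2 in PI and 341 ± 39.5 in CI, and 229 ± 47.4 in PC and 319 ± 42.4 in CC (SD, n = 5 each). TENM3, a teneurin adhesion protein, averaged 35.8 ± 10.7 in PI and 72.3 ± 11.6 in CI, and 30.4 ± 12.5 in PC and 72.2 ± 34.4 in CC. All 5 had lower means in PI than in CI and in PC than in CC, differences that the choice by likeness to ACVR1C favours. When each gene was taken as its deviation from the group means, the closest were different genes, MMEL1 (0.79), NUB1 (0.76), MED10 (0.75), KLHL32 (0.74) and KYNU (0.74).

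The other type I receptor of the activin branch, ACVR1B (ALK4), through which activin A mainly signals, had the higher means in pregnant mares. Its normalized counts were 473, 528, 555.0, 471 and 444 in PI1 to PI5, against 418, 515, 378, 495 and 376 in CI1 to CI5. They were 476, 571, 581, 617 and 474 in PC1 to PC5, against 460, 541, 473, 346 and 370.1 in CC1 to CC5. All PI values were above the CI median and all PC values above the CC median, but the ranges overlapped on each side.

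The log2 difference of ACVR1B was 0.19 ± 0.14 for PI minus CI and 0.32 ± 0.14 for PC minus CC (SE). It did not pass on either side, with limma Benjamini-Hochberg adjusted p = 0.999 for PI minus CI and 1.0 for PC minus CC. The difference averaged over the sides was 0.25 ± 0.10, with a limma adjusted p of 0.415. Both values come from a fit that treats the oviducts of one mare as separate. ACVR1B was lower ipsilaterally in all 5 pregnant pairs of numbers, a count not made over all features, so nothing is read from it. PI minus PC was -0.13 ± 0.14 in the fit that leaves the pairing out (limma adjusted p = 0.999). With same-numbered libraries as a block (duplicateCorrelation, or the number as a fixed term) the limma adjusted p was 0.828 or 0.822. ACVR1B was higher in deeper libraries over the 20 (r = 0.64, Spearman's rho = 0.71). Without PI1 and CI2, the libraries farthest from the median depth, r was 0.76. This is a description with no test, because libraries of one mare are not independent, and the part of depth in the ACVR1B differences was not tested.

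The counts of ACVR1C as a percentage of those of ACVR1B in the same library were lower in pregnant mares. They were 3.19% to 10.7% in PI (median 6.81%) and 9.72% to 22.2% in CI (median 15.5%), and 3.74% to 8.60% in PC (median 5.43%) and 12.0% to 29.9% in CC (median 17.1%). This ratio uses no normalization between libraries, but it does depend on the lengths of both transcripts, so only its change between libraries can be read. It rests on ACVR1C and is a description.

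ACVR1 (ALK2), a type I receptor that mostly signals to the BMP SMADs, ran from 101 to 146 in PI and 97.3 to 244 in CI, and from 87.2 to 180.1 in PC and 116 to 255 in CC. The PI values were close together, and 4 of the 5 were below the CI median, whereas 4 of the 5 PC values were above the CC median. Its log2 differences were -0.35 ± 0.27 for PI minus CI and -0.14 ± 0.27 for PC minus CC, neither of which passed (limma adjusted p = 0.999 and 1.0). ACVR1 was likewise higher in deeper libraries (r = 0.73, rho = 0.79, and r = 0.67 without PI1 and CI2).

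The type I BMP receptors BMPR1A (ALK3) and BMPR1B (ALK6) had log2 differences of opposite sign, none of which passed. BMPR1B is best known from sheep, in which a variant of it raises ovulation rate. BMPR1A was at 134, 248, 191, 161 and 135 in PI1 to PI5, against 227, 326, 128, 268 and 200.4 in CI1 to CI5. It was at 112, 280.0, 230.0, 248 and 229 in PC1 to PC5, against 292, 328, 293, 190.4 and 177.0 in CC1 to CC5. Only 1 PI library was above the CI median and no PC library was above the CC median, yet the ranges overlapped widely.

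The BMPR1A log2 differences were -0.37 ± 0.27 for PI minus CI and -0.24 ± 0.27 for PC minus CC, and neither passed (limma adjusted p = 0.999 and 1.0). BMPR1A was also higher in deeper libraries (r = 0.66, rho = 0.67, and r = 0.54 without PI1 and CI2). Depth went with some of the other members too, with r = 0.57 for INHBB and 0.44 for BMPR1B. For BMPR2 the sign was opposite, at -0.35. Without PI1 and CI2 these values were 0.55, 0.57 and -0.59. For ACVR1C, ACVR2A and ACVR2B r was 0.05, 0.17 and -0.01. ACVR1 and BMPR1A also varied together over the 20 libraries (r = 0.82). Sums of cell-type markers went with these genes as well. For BMPR1A r was -0.84 with the ovarian and mesothelial sum, -0.68 with the multiciliated sum and 0.605 with the stromal sum. For ACVR1 these were -0.71, -0.54 and 0.715. WT1, at a mean of 2000 normalized counts, made up most of the ovarian and mesothelial sum. The r with that sum therefore mainly describes WT1, and is not read as ovarian or mesothelial cell content. The part of depth or of cell content in the members' differences was not tested.

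BMPR1B was at 647, 656, 668, 658 and 435 in PI1 to PI5, against 353, 662, 411, 572 and 541 in CI1 to CI5. It was at 578, 614, 568, 969 and 551 in PC1 to PC5, against 516, 707, 566, 521 and 645 in CC1 to CC5. PI1 to PI4 lay within a narrow band, with PI5 far below them and PC4 far above the rest of its group. The log2 differences were 0.29 ± 0.19 for PI minus CI and 0.13 ± 0.19 for PC minus CC (limma adjusted p = 0.999 and 1.0), and without PC4 the second was -0.02.

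The ratio of BMPR1B to BMPR1A counts was 2.65 to 4.84 in PI (median 3.50) and 1.56 to 3.21 in CI (median 2.13). It was 2.19 to 5.16 in PC (median 2.47) and 1.77 to 3.64 in CC (median 2.16). The ranges overlapped on both sides. This ratio was formed after its values had been seen and was not tested.

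**Figure D2:**
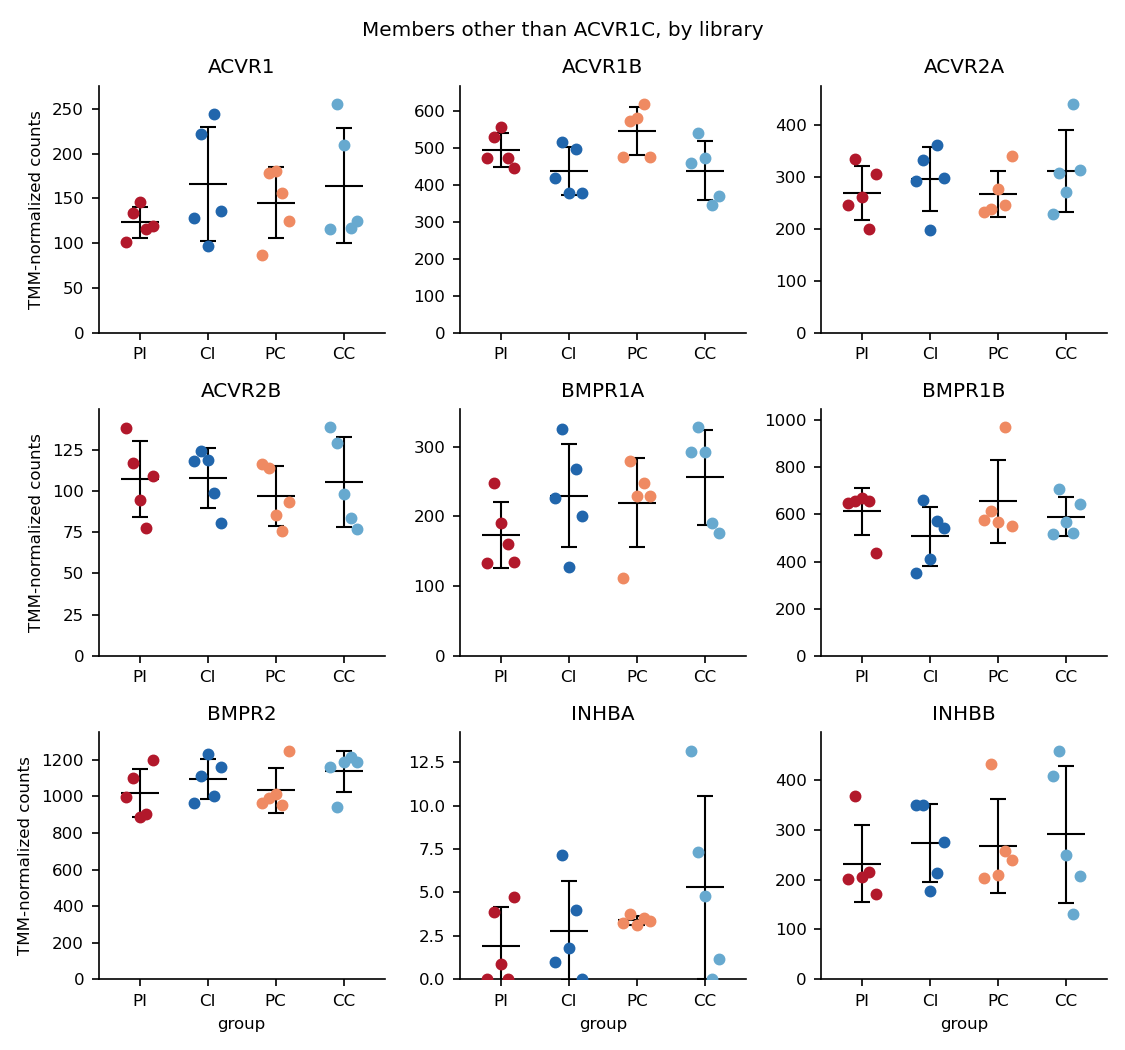
TMM-normalized counts of the 9 members other than ACVR1C in each library (points), with the group mean and SD (bars), in the groups PI, CI, PC and CC; each panel has its own scale starting at 0. In every panel the pregnant and cyclic points overlap on both sides.

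The type II receptors, which bind the ligand and activate the type I receptor, differed little between groups. BMPR2, the type II receptor of the BMP branch, had the smallest coefficient of variation of the tested members over the 20 libraries (11.3%), against 48.3% for ACVR1C. It averaged 1017 ± 132 in PI and 1095 ± 109 in CI, and 1034 ± 123 in PC and 1138 ± 112 in CC (SD, n = 5 each). Its log2 differences were -0.11 ± 0.12 for PI minus CI and -0.14 ± 0.12 for PC minus CC.

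ACVR2A and ACVR2B bind activins and several BMPs. ACVR2A averaged 269 ± 52.1 in PI and 296 ± 61.4 in CI, and 266 ± 44.3 in PC and 312 ± 79.0 in CC. ACVR2B averaged 107 ± 23.1 in PI and 108 ± 18.2 in CI, and 96.8 ± 17.9 in PC and 105 ± 27.3 in CC (SD, n = 5 each). These groups overlapped for both genes.

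The log2 differences of ACVR2A were -0.13 ± 0.19 for PI minus CI and -0.21 ± 0.19 for PC minus CC, and those of ACVR2B were -0.02 ± 0.20 and -0.10 ± 0.20. None of the type II receptors passed (limma adjusted p = 0.999 on the ovulation side and 1.0 on the opposite side for each). ACVR2B was higher ipsilaterally in all 5 pregnant pairs of numbers, a count not made over all features, so nothing is read from it. PI minus PC was 0.13 ± 0.20 in the fit that leaves the pairing out (limma adjusted p = 0.999). In the blocked fits the limma adjusted p was 0.829 (duplicateCorrelation) or 0.822 (number as a fixed term).

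INHBB encodes the beta B subunit, which forms activin B, a ligand of ACVR1C. It was at 201, 369, 206, 215 and 171 in PI1 to PI5, against 349.6, 349.9, 176, 214 and 275 in CI1 to CI5. It was at 202, 433, 209, 257 and 241 in PC1 to PC5, against 408, 459, 250.5, 130.3 and 208 in CC1 to CC5. PI2 and PC2 had the highest values of their groups and stood apart from the rest. CC2 was the highest in CC, and CI2 was level with CI1. PI2, CI2 and CC2 were also the deepest libraries of their groups. INHBB was higher in deeper libraries (r = 0.57), and the part of depth was not tested.

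The log2 differences of INHBB were -0.23 ± 0.30 for PI minus CI and -0.03 ± 0.30 for PC minus CC (limma adjusted p = 0.999 and 1.0). INHBB was lower ipsilaterally in all 5 pregnant pairs of numbers, a count not made over all features, so nothing is read from it. PI minus PC was -0.20 ± 0.30 in the fit that leaves the pairing out (limma adjusted p = 0.999). In the blocked fits the limma adjusted p was 0.832 (duplicateCorrelation) or 0.822 (number as a fixed term).

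INHBA encodes the beta A subunit of activin A. It was covered by 0 to 12 reads per library, had no read in 4 of the 20, and did not pass the filter on low values. Its normalized counts ran from 0 to 4.72 in PI and from 0 to 7.15 in CI, and from 3.12 to 3.77 in PC and from 0 to 13.2 in CC. Most of these values are near the limit that a count of 0 allows, so no fold was formed and a difference was not detectable at this depth.

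Of the 9 members that passed the filter, 2 (22.2%) had a positive and 7 a negative log2 difference between pregnant and cyclic mares on each side. Over all features 48.1% were positive for PI minus CI and 51.8% for PC minus CC. The negative members include ACVR1C, which was chosen for being lower, so no lean of the set is read from this count. The median of the 9 members, ACVR1C included, was -0.13 for PI minus CI and -0.14 for PC minus CC, against -0.01 and 0.01 over all 14692 features. ACVR1B and BMPR1B were the positive ones both times. The percentage of features called by limma was 0% on each side, with 3.50% of all features (514) at an unadjusted p under 0.05 for PI minus CI and 4.55% (669) for PC minus CC. Apart from ACVR1C, 0 of 8 members reached that unadjusted level for PI minus CI and 1 of 8, ACVR1B, for PC minus CC. The count test of edgeR also called 0 features on each side, and DESeq2 called 0 for PI minus CI and 12 for PC minus CC, with none of the 8 members among them.

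**Figure D3:**
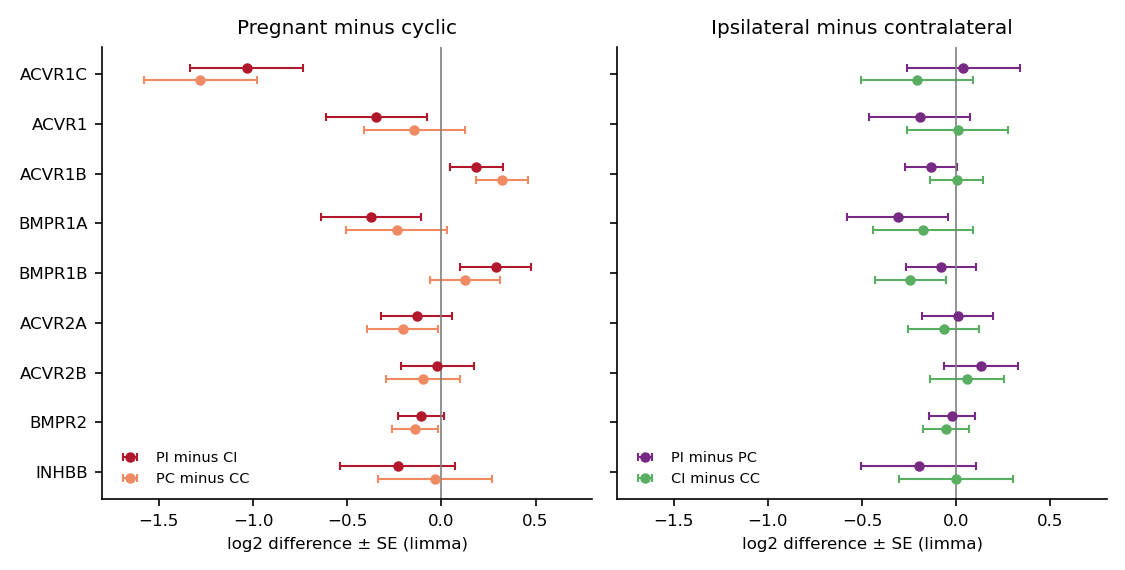
Log2 differences with their SE (limma, on log2(normalized count + 3.03)) of the 9 members that passed the filter, for pregnant minus cyclic on each side (left) and ipsilateral minus contralateral in each status (right). ACVR1C lies at -1.03 and -1.28 on the left; the other 8 members lie between -0.37 and 0.32 there.

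Averaged over both sides, 16 features (0.109%) were called between pregnant and cyclic mares, 3 of them higher (0.0204%) and 13 lower (0.0885%) in pregnant mares. None of the 8 members other than ACVR1C was among them. That contrast treats the oviducts of one mare as separate, and 0 features were called when same-numbered libraries of one status were fitted as a block. Of these 8 members the lowest limma adjusted p was 0.415, that of ACVR1B.

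No member passed in the comparison of the ovulation side with the opposite side. Over the 9 that passed the filter, PI minus PC ran from -0.31 to 0.13 and CI minus CC from -0.24 to 0.06, and the lowest unadjusted p of the 8 members other than ACVR1C was 0.257 in pregnant and 0.205 in cyclic mares. The largest of these was BMPR1A, with PI minus PC at -0.31 ± 0.27 (limma adjusted p = 0.999). No feature was called by limma in either (0%), where 112 features (0.762%) in pregnant and 42 (0.286%) in cyclic mares had an unadjusted p under 0.05, and edgeR and DESeq2 called 0 in both. Those p-values come from a fit that leaves the pairing out. With same-numbered libraries of one status as a block (duplicateCorrelation, or the number as a fixed term), 455 or 464 features in pregnant and 214 or 240 in cyclic mares had an unadjusted p under 0.05, and 0 were called. The lowest unadjusted p of the 8 members in these blocked fits was 0.155 or 0.154 in pregnant mares (BMPR1A) and 0.104 or 0.101 in cyclic mares (BMPR1B), and their lowest limma adjusted p was 0.828 or 0.822 in pregnant mares and 1.0 in cyclic mares. The pregnancy difference itself was not shown to depend on the side, since for the 8 members the lowest limma adjusted p of the interaction was 1.0, and limma, edgeR and DESeq2 each called 0 features (0%), with 47 (0.32%) at an unadjusted limma p under 0.05, and 225 or 267 in the blocked fits.

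**Figure D4:**
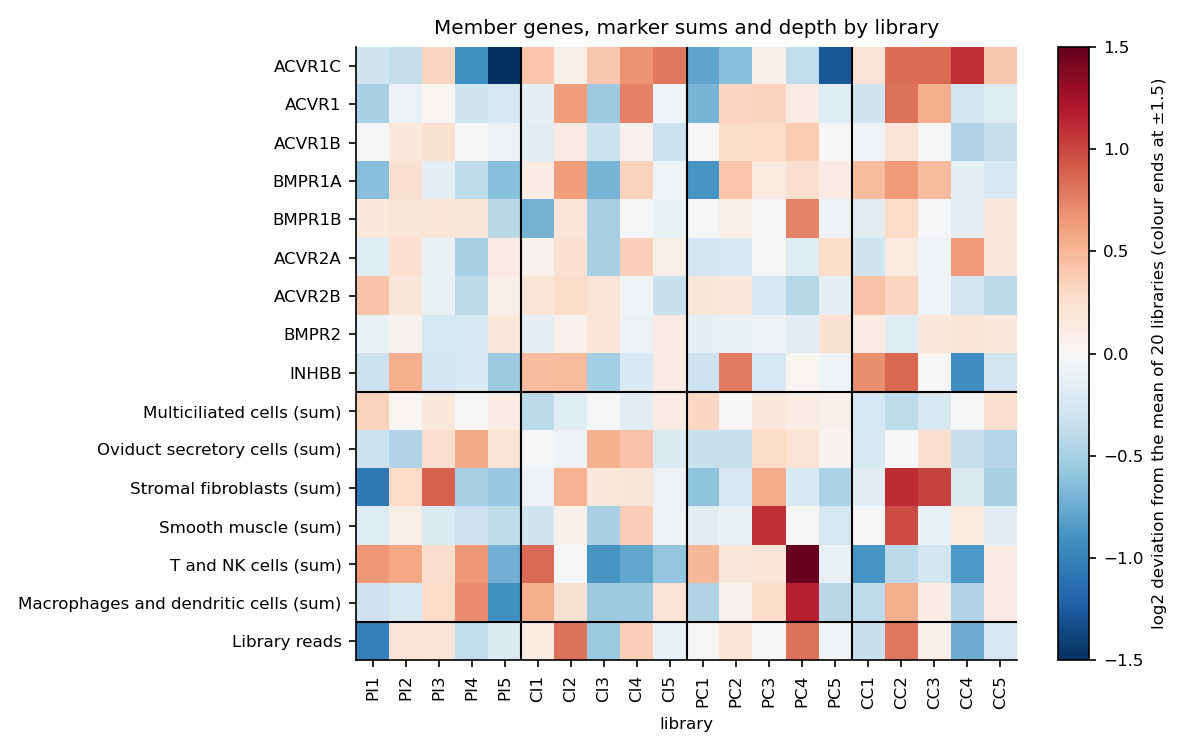
Log2 deviation of each library from the mean of the 20 libraries for 9 members, 6 sums of cell-type markers and the library reads, with libraries as columns in the order PI, CI, PC, CC and colours ending at ±1.5. The ACVR1C row is mostly below its mean in PI and PC and above it in CI and CC, the multiciliated sum is mostly the reverse, and ACVR1, BMPR1A and ACVR1B correlate with the library reads (r = 0.73, 0.66 and 0.64).

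Among the rest of the pathway, the receptor and co-receptor list had 8 of its 12 genes found by symbol. TGFBR1, TGFBR2, TDGF1 and HJV were not found, so nothing is said of their levels. The 7 genes that passed the filter had 4 positive and 3 negative differences on each side. Their medians were 0.01 and 0.03. NEO1, a receptor for RGM proteins that take part in BMP signalling, averaged 1523 ± 198 in PI and 1727 ± 174 in CI, and 1656 ± 241 in PC and 1813 ± 74.6 in CC (SD, n = 5 each). TGFBR3 (betaglycan), a co-receptor that lets inhibin block activin, averaged 834 ± 140.0 in PI and 835 ± 171 in CI, and 983 ± 55.3 in PC and 980.2 ± 216 in CC. RGMB, a BMP co-receptor, had differences of 0.06 ± 0.13 and 0.08 ± 0.13. None was called.

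The list of further ligands had 24 genes found by symbol and 13 past the filter, with 6 positive and 7 negative differences for PI minus CI (median -0.01) and 5 positive and 8 negative for PC minus CC (median -0.14). TGFB2, a TGF-beta ligand, was at 356 ± 129 in PI and 485 ± 42.5 in CI, and at 350.3 ± 99.9 in PC and 496 ± 97.9 in CC (SD, n = 5 each). Its log2 differences were -0.52 ± 0.23 on each side, which did not pass over all features (limma adjusted p = 0.999 and 1.0). BMP1, a metalloproteinase despite its name, had differences of 0.27 ± 0.25 and 0.07 ± 0.25, and TGFB3 of 0.07 ± 0.24 and 0.11 ± 0.24.

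NODAL and GDF3, ligands that can act through ACVR1C, were at or near 0. NODAL averaged 0.24 normalized counts over the 20 libraries, with a highest value of 1.93, and GDF3 averaged 0.0305, with a highest value of 0.61. Both are under the limit that a count of 0 allows in most libraries, so their presence was not detectable at this depth. FOXH1, a transcription factor that works with SMAD2 downstream of NODAL, was at 0 in every library.

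The extracellular inhibitors of activins and BMPs had 10 genes past the filter, with 4 positive and 6 negative differences on each side and medians of -0.18 and -0.07. CHRD (chordin), which binds BMPs and keeps them from their receptors, averaged 375.0 ± 110 in PI and 282 ± 119 in CI, and 389 ± 44.0 in PC and 261 ± 133 in CC (SD, n = 5 each). Its differences were 0.51 ± 0.40 and 0.80 ± 0.40 and did not pass (limma adjusted p = 0.999 and 1.0). TWSG1, a partner of chordin, had differences of -0.14 ± 0.25 and -0.09 ± 0.25, and FSTL1, a follistatin-like protein, of -0.21 ± 0.26 and -0.05 ± 0.26.

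The SMADs with their partners and regulators had 14 genes past the filter, and SMAD9, SKI and FKBP1A were not found by symbol. The 14 had 6 positive and 8 negative differences for PI minus CI (median -0.02). For PC minus CC, 5 were positive and 9 negative (median -0.04). SMAD4, which both branches share, had differences of -0.13 ± 0.22 and -0.07 ± 0.22. ZFYVE16 (endofin), which binds SMADs at endosomes, had differences of 0.02 ± 0.14 and 0.09 ± 0.14, and SMURF2, a ubiquitin ligase that lowers SMAD and receptor levels, of 0.05 ± 0.14 and -0.09 ± 0.14.

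The list of genes that SMADs are known to induce had 16 past the filter, with 5 positive and 11 negative differences for PI minus CI (median -0.11) and 7 positive and 9 negative for PC minus CC (median -0.01). SKIL, a negative regulator of SMADs, had differences of -0.04 ± 0.18 and 0.00 ± 0.18, and TGFBI, an extracellular matrix protein, of -0.11 ± 0.24 and 0.06 ± 0.24. CTGF, a matricellular protein, averaged 195 ± 46.8 in PI and 145 ± 36.6 in CI, and 160.2 ± 20.3 in PC and 191 ± 42.3 in CC. Its differences were 0.42 ± 0.19 and -0.23 ± 0.19. No gene of the 5 lists was called in any of these comparisons, and SMAD6, SMAD7, BAMBI, PMEPA1 and SKIL stand in 2 lists each.

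**Figure D5:**
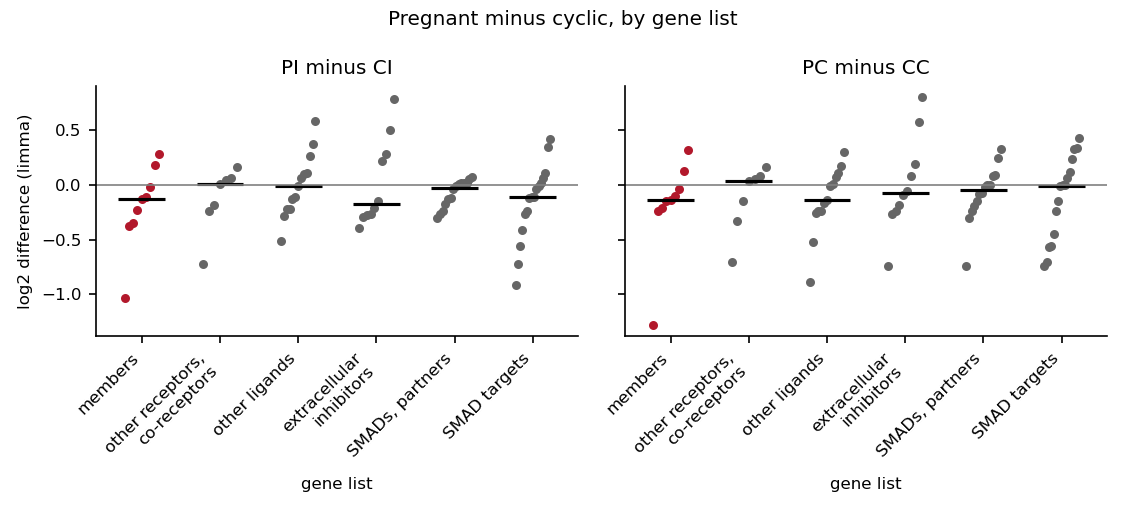
Log2 differences (limma) of the 9 members and of the genes of 5 pathway lists that passed the filter, for PI minus CI (left) and PC minus CC (right); each point is a gene and each line the list's median. The list medians lie between -0.18 and 0.03 on both sides, and the lowest member point in each panel is ACVR1C.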

How the data were processed

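RNA was prepared with a stranded total RNA kit and rRNA depletion, per the labels' protocols, although the labels name the molecule as polyA RNA. The authors deposited TMM-normalized counts, a signal per feature and library, in 1 table of 26740 features. CASAVA 1.8 is named in the submitters' processing notes; no source used here gives the aligner, counter, build, annotation or strand setting, so overlapping genes, antisense genes and close paralogs are uncertain. Within each library 100% of values were whole multiples of 1 read (tolerance 0.01 reads), and reads were recovered on that basis. All table columns belonged to a sample.

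Values were taken as log2(value + 3.03), the equivalent of 0.5 CPM, for the 14692 features above 1 CPM in at least 5 libraries. limma 3.58.1 (R 4.3.3; trend, robust) was fitted on the means of all 4 groups over 20 libraries, with two-sided tests and Benjamini-Hochberg adjustment over all features kept at 0.05. P-values set a group difference against the spread between these libraries. The main fit takes the 20 libraries as independent, although the correlation within the replicate block was 0.393. The alternatives were other pseudocounts and filters, CPM without TMM, edgeR 4.0.16 and DESeq2 1.42.0 on recovered reads, a replicate block, libraries left out singly, and PI1, PI4 and CI3 left out together. The count tests called 18 features by edgeR and 190 by DESeq2 for the mean of both sides; an adjusted p that DESeq2 gives as NA stayed NA. The code was tested on simulated data.

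The replicate numbers of pregnant libraries paired them: deviations from the group means of PI and PC correlated at 0.53 to 0.70 within a number, each library best with its own number. In cyclic mares the correlations were -0.04 to 0.68, and 2 of 5 were near 0.

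The members, lists and tests were chosen with earlier results of these data known. The text describes every member, the 3 genes with the highest mean level in each pathway list and any list gene past the threshold, and the 5 genes most like ACVR1C by each measure. CCN2 and JCHAIN were matched as CTGF and IGJ.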

Additional observations from a re-analysis of the deposited data

Results flagged for a closer look

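Over the 10 members and 4 groups, 40 sets of 5 libraries were looked at for a value far from the others in its group, and 6 had one; chance gives about 1 in 20 such sets. BMPR1B was at 434.67 normalized counts in PI5, against 647 to 668 in the other PI libraries, and at 969.12 in PC4, against 551 to 614 in the other PC libraries. BMPR2 was at 1250.5 in PC5, against 955 to 1012 in the other PC libraries, and at 940.92 in CC2, against 1161 to 1217 in the other CC libraries. INHBB was at 368.51 in PI2, against 171 to 215 in the other PI libraries, and at 432.68 in PC2, against 202 to 257 in the other PC libraries; PI2 and PC2 share a replicate number. ACVR1C had no such value.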

How the results depend on the processing

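ACVR1C kept its negative sign in both comparisons with cyclic mares under all settings, at -1.25 to -0.79 for PI minus CI and -1.45 to -1.11 for PC minus CC when single libraries were left out. Of the other 8 members none was called under any setting. For PC minus CC, 0 features were called by limma, 1 on CPM without TMM and 12 by DESeq2, where ACVR1C was at -1.34. For the mean of both sides, 16 features were called, and 0 with the replicate block, 0 without PI1, PI4 and CI3, and 190 by DESeq2. Leaving out single libraries gave 2 to 26: without PI1, PI4, PC1, PC4, PC5, CI1, CI4, CI5, CC2, CC3 or CC4 it gave 2 to 7, and without PI5, PC2 or CC5 it gave 25 or 26. The cause was not tested.

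Small differences changed sign. ACVR2B for PI minus CI was 0.032 without PI1, PI4 and CI3, 0.0022 by DESeq2, and -0.119 to 0.0868 with single libraries left out. For PC minus CC, leaving out single libraries gave -0.246 to 0.0334 for ACVR1, -0.196 to 0.0091 for ACVR2B, -0.0231 to 0.193 for BMPR1B and -0.285 to 0.164 for INHBB. Of 27 member differences by side or interaction, 15 changed sign under some setting, each at most 0.20 in size. The replicate block changed no other count of calls. Depth limits INHBA and the other genes below the filter.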
